A study of Mus musculus with 6 samples.

Results

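The cytosolic ribosomal protein genes and their paralogs were followed in LSK cells of mouse bone marrow. The members were the gene symbols of the deposited count tables that name a large-subunit protein (Rpl), a small-subunit protein (Rps), a stalk protein (Rplp0, Rplp1, Rplp2) or Rpsa, together with the paralogs Rpl22l1, Rpl7l1, Rpl3l, Rps27l and Rpl39l, at 10 or more counts in 3 or more libraries. S6 kinases, whose symbols begin with Rps6k, were left out. Of 23420 genes in the tables, 84 symbols matched and 81 reached the minimum, with 42 large-subunit genes, 31 small-subunit genes, 3 stalk genes, 4 paralogs and Rps4y2, which RefSeq lists as Rps4l, a transcribed pseudogene. The symbols below the minimum were Rpl26 with 1 count over the 6 libraries, Rpl10l with 0 and Rpl39l with 11. All 81 members were among the 12653 genes tested. The members were chosen by name and count minimum, not by a measured difference between the groups. Earlier results of these data were known when this choice was made.

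The series holds 1 RNA library from each of 3 bcat(ex3)osb mice, whose osteoblasts had permanently active β-catenin signalling, and 3 wild-type (WT) littermates. The promoter or Cre line behind the osteoblast allele and the ages of the mice were not given in these sources. LSK cells, which lack lineage markers and carry Sca-1 and c-Kit, hold the stem cells and multipotent progenitors of the blood, so the altered cells and the sequenced cells are different cells. Total RNA was sequenced with a stranded kit, and the unit below is CPM, the count scaled to a fixed TMM-adjusted library size, unless TPM (per gene length) is named.

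Cytosolic ribosomes are assembled in the nucleolus from ribosomal RNA and ribosomal proteins, most of them encoded by a single active gene, many with near-identical processed copies elsewhere in mammalian genomes. Their mRNAs begin with a terminal oligopyrimidine (TOP) tract, a C followed by an unbroken run of pyrimidines, through which the kinase mTOR and the binding protein LARP1 control their translation as a group. In blood formation the dose of single ribosomal proteins matters: in humans, loss or mutation of RPS14, RPS19, RPL5 or RPL11 accompanies anaemias that arise in progenitors.

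Sequences at the start site are shown because a pyrimidine run there is the known shared feature of these genes, and paralogs can carry it too. They are 30-base windows of the RefSeq promoter table on GRCm38.p6, written 5′ to 3′ on the gene's strand, with the longest pyrimidine run that starts with C within 40 bases of the annotated start in capitals.
Rps6, chr4:86857349-86857378, minus strand: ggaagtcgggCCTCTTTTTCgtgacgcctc
Rplp2, chr7:141447636-141447665, plus strand: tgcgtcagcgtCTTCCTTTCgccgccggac
Rps27, chr3:90213632-90213661, minus strand: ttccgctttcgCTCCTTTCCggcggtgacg
Rpl4, chr9:64173405-64173434, plus strand: gagcgtggCCTTCTCCTCTCCCcgtcatgg
Rpl22l1, chr3:28805500-28805529, plus strand: gcaagcccgttCTCTTCCCacggctgcagc
Rpl7l1, chr17:46782671-46782700, minus strand: cgtcgaggcgggCCTCTCTaccccgcccgg

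In this order they belong to the small-subunit protein phosphorylated by the S6 kinases, a stalk protein, a small-subunit protein measured at very low counts, a large-subunit protein, the paralog of Rpl22, and the paralog of Rpl7, whose run of 7 is shorter than the 8 counted below. In the same order, the runs begin at offsets of -1, -4, -2, 26, 3 and -32 bases from the annotated start, so the first 3 and that of Rpl22l1 lie at the start itself. The promoter table held 60 of the 81 members. A run of C followed by 7 or more C or T, on the gene's strand within 40 bases of the start, was present in 42 of these 60 (70.0%), against 26.1% of the 27025 genes in the table. On the opposite strand the same search found it in 12 of the 60 members and 29.2% of all genes. The letters CTTTC, which can lie inside such a run, were found on the gene's strand in 27 of the 60 members (45.0%) and 11.9% of all genes, and on the opposite strand in 9 of the 60 and 11.5% of all genes. CCGGAAG, searched on both strands over the whole 300 bases, was present in 24 of the 60 members and 9.93% of all genes. The 42 members with the run and the 18 without it had median log2 fold changes, bcat(ex3)osb over WT, of 0.43 and 0.45.

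Total counts were between 15431235 and 19956774 per library. By Xist and Y-linked counts, bcat(ex3)osb mice 1 and 2 were male, and bcat(ex3)osb mouse 3 and all 3 WT mice were female, so sex and genotype are partly confounded. Ctnnb1, the β-catenin gene altered in the osteoblasts, was at 264 to 323 CPM in bcat(ex3)osb and 263 to 473 CPM in WT libraries, and since the allele is placed in other cells this checks no label. All 6 LSK markers were measured, with summed levels of 2945 to 3606 CPM in bcat(ex3)osb and 2923 to 4368 CPM in WT mice. Among them Ly6a, which encodes Sca-1, had 81.5, 65.9 and 75.7 CPM in bcat(ex3)osb mice 1, 2 and 3, against 148, 162 and 156 CPM in WT mice 1, 2 and 3. The bcat(ex3)osb values all lay below the WT values, with an edgeR adjusted p of 0.312.

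The members were most abundant in the libraries numbered 2 of both groups, and this spread between mice was larger than the spread between genotypes. They took 3.00, 5.47 and 2.65% of all counts in bcat(ex3)osb mice 1, 2 and 3, against 2.10, 4.20 and 2.46% in WT mice 1, 2 and 3. In each group mouse 2 was highest, and the groups overlapped. The mean share was 3.71 ± 1.54% in bcat(ex3)osb and 2.92 ± 1.12% in WT mice (SD, n = 3 each), a difference of 0.788 percentage points with p = 0.5 by a two-sided exact permutation test, whose smallest possible p in this design is 0.10. As a share of TPM the members took 8.13, 12.6 and 7.20% in bcat(ex3)osb mice 1, 2 and 3, against 5.92, 9.99 and 6.65% in WT mice 1, 2 and 3 (p = 0.5, same exact test). In bulk RNA, a change in the number of cells with a high ribosomal protein content and a change of these RNAs per cell cannot be told apart.

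The members moved together between libraries. On the log2 scale, their median distance from the mean WT level was 0.16, 1.22 and -0.09 in bcat(ex3)osb mice 1, 2 and 3, against -0.50, 0.69 and -0.18 in WT mice 1, 2 and 3. Of the 81 members, 79 were highest in bcat(ex3)osb mouse 2 and 79 were second-highest in WT mouse 2, and 74 were lowest in WT mouse 1. The median excess of mouse 2 over the mean of mice 1 and 3 was 1.20 in the bcat(ex3)osb group and 1.03 in the WT group, in log2 units. The library mean held 92.8% of the variance of log2 CPM within members, over the 80 members without Rpl3l. Around the module level, which is the median of all 81 members in each library, the median standard deviation of a member was 0.118 log2 units. Of the 81 members, 61 were under 0.2.

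**Figure D1:**
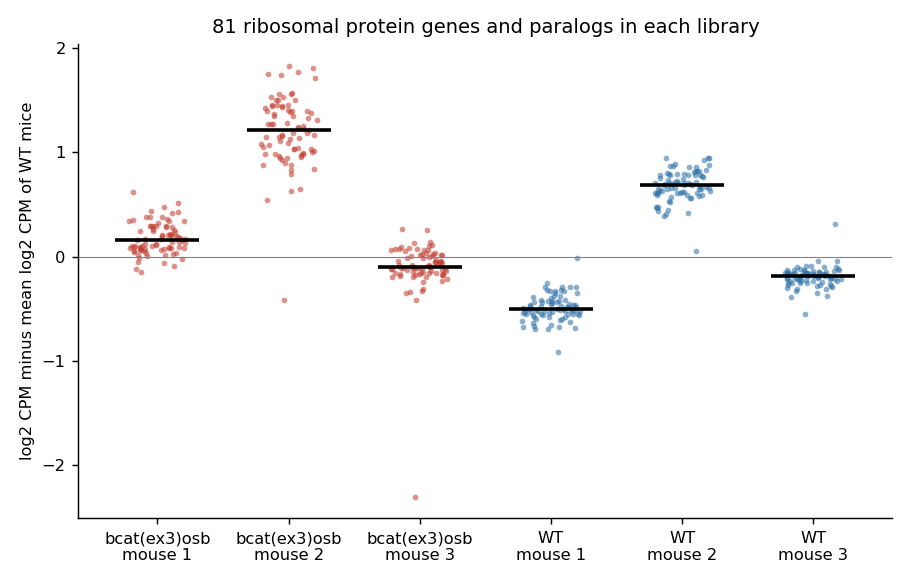
Each point is 1 of 81 members in 1 library, as log2 CPM minus the mean log2 CPM of the 3 WT mice, with bcat(ex3)osb in red and WT in blue and a bar at the median. The medians are 0.16, 1.22 and -0.09 in bcat(ex3)osb mice 1, 2 and 3, against -0.50, 0.69 and -0.18 in WT mice 1, 2 and 3, so both mouse 2 libraries stand above the other 4.

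Other measures also differed between these libraries. The members were short, with a median length of 710 bases against 2810 bases for all genes tested, and 62 of them were under 1000 bases. Genes shorter than 1000 bases that were not members took 6.59, 10.4 and 6.10% of the counts of bcat(ex3)osb mice 1, 2 and 3, against 5.002, 9.45 and 5.99% in WT mice 1, 2 and 3, the same order of libraries as for the member share. Of the 8 B cell markers, all were detected. Their sum was 542, 94.3 and 70.6 CPM in bcat(ex3)osb mice 1, 2 and 3. In WT mice 1, 2 and 3 it was 548, 894 and 949 CPM, so bcat(ex3)osb mouse 1 was near WT mouse 1. All 5 macrophage markers in the tables were detected, with 4.74 to 33.6 CPM in bcat(ex3)osb and 41.4 to 73.3 CPM in WT mice, and Cd5l was at 0 in all bcat(ex3)osb libraries. The 5 neutrophil markers in the tables summed to 31.2 to 128 CPM in bcat(ex3)osb and 12.6 to 145 CPM in WT mice. The 4 T cell markers, with Lck almost the whole of the sum, reached 62.5 to 125 CPM in bcat(ex3)osb and 114 to 135 CPM in WT mice, and the 6 osteoblast markers, mostly Alpl, reached 0.710 to 5.11 CPM in bcat(ex3)osb and 6.37 to 23.1 CPM in WT mice. The 5 erythroid markers in the tables summed to 2.33 to 3.55 CPM in bcat(ex3)osb and 1.41 to 29.1 CPM in WT mice, with Hba-a1 and Hba-a2 at 0 throughout. How reads that map to several genes were counted is not given, so these 0 counts are not taken as absence of the RNA. None of the 7 marker sums was highest in both mouse 2 libraries, but the LSK and osteoblast sums were lowest there within each group. The LSK sum was 2945 CPM in bcat(ex3)osb mouse 2 and 2923 CPM in WT mouse 2. Among the LSK markers Kit, the receptor used in the sort, had 490.0, 345 and 725 CPM in bcat(ex3)osb mice 1, 2 and 3, against 1002, 323 and 720.1 CPM in WT mice 1, 2 and 3, with mouse 2 lowest in both groups. The part of length, sex or other cell types in the member levels was not tested here beyond the alternatives described below.

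No member passed the test between the genotypes. By edgeR's quasi-likelihood test with Benjamini-Hochberg adjustment over all 12653 genes, 0 of the 81 members and 0 genes in all were called at an adjusted p of 0.05 (0% of genes). At an unadjusted p of 0.05, 0 members were called, against 3.43% of all genes higher and 3.13% lower. The smallest member p was 0.0740, for Rpl41. limma-voom called 0 members and 0% of genes, and DESeq2 called 0 members and 1.34% of genes. Fold changes were nonetheless mostly on one side: 79 of 81 members had a positive log2 fold change, bcat(ex3)osb over WT, against 50.3% of all genes, and the member median was 0.44 against 0.00 for all genes. Since the members share their library levels, these 79 signs are not 79 independent observations. All 3 bcat(ex3)osb values lay above all 3 WT values for 0 members (6.89% of all genes) and below them for 1 member, Rpl7l1 (7.67% of all genes). The p-values set the difference between the groups against the spread between mice, which is estimated in part from all genes.

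All 42 large-subunit genes had positive log2 fold changes, between 0.12 and 0.90 with a median of 0.42, and 0 were called. Rpl41 (chr10:128548110-128549168), which encodes a very short basic peptide at the interface of the subunits, had 397, 981 and 323 CPM in bcat(ex3)osb mice 1, 2 and 3, against 218, 409 and 286 CPM in WT mice 1, 2 and 3. Mouse 2 was highest in both groups, and WT mouse 2 lay above bcat(ex3)osb mice 1 and 3. Its log2 fold change was 0.90 ± 0.44 (SE), with an edgeR adjusted p of 0.789. Rpl36 (chr17:56610094-56614246), another large-subunit protein gene, had 292, 870.2 and 269.7 CPM in bcat(ex3)osb mice 1, 2 and 3, against 173, 425 and 225 CPM in WT mice 1, 2 and 3, with a log2 fold change of 0.80 ± 0.51 (adjusted p 0.860). The order of the mice was that of Rpl41, again with the groups overlapping. Rpl38 (chr11:114667818-114672333), whose protein mouse embryos need to translate a subset of Hox mRNAs, had 168, 451 and 142 CPM in bcat(ex3)osb mice 1, 2 and 3, against 80.2, 248 and 108 CPM in WT mice 1, 2 and 3 and a log2 fold change of 0.80 ± 0.54 (adjusted p 0.868). WT mouse 1 was lowest for Rpl38, and WT mouse 2 exceeded the bcat(ex3)osb mice 1 and 3.

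Rpl27 (chr11:101442245-101445596) had 199.8, 439 and 160.4 CPM in bcat(ex3)osb mice 1, 2 and 3, against 102, 240.5 and 134 CPM in WT mice 1, 2 and 3, with a log2 fold change of 0.74 ± 0.44 (edgeR adjusted p 0.849). Rpl32 (chr6:115805514-115808743), the most abundant member per length, had 904, 1933 and 756 CPM in bcat(ex3)osb mice 1, 2 and 3, against 501, 1126 and 629 CPM in WT mice 1, 2 and 3, with a log2 fold change of 0.67 ± 0.42 (adjusted p 0.857). In both genes bcat(ex3)osb mouse 2 was highest of all, and WT mouse 2 lay above bcat(ex3)osb mice 1 and 3. Rpl4 (chr9:64173387-64178562), one of the longer large-subunit proteins, had 1396, 2162 and 1330.4 CPM in bcat(ex3)osb mice 1, 2 and 3, against 1082, 1879 and 1283 CPM in WT mice 1, 2 and 3, and its log2 fold change of 0.20 ± 0.28 was among the smaller ones. Rpl5, whose protein binds 5S ribosomal RNA together with Rpl11 and can inhibit Mdm2, the p53 ligase, had 248, 462 and 240.3 CPM in bcat(ex3)osb mice 1, 2 and 3, against 203, 358 and 237 CPM in WT mice 1, 2 and 3. Rpl11 had 256, 548 and 226 CPM in bcat(ex3)osb mice 1, 2 and 3, against 183, 374 and 214 CPM in WT mice 1, 2 and 3. Both genes had mouse 2 highest and WT mouse 1 lowest.

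**Figure D2:**
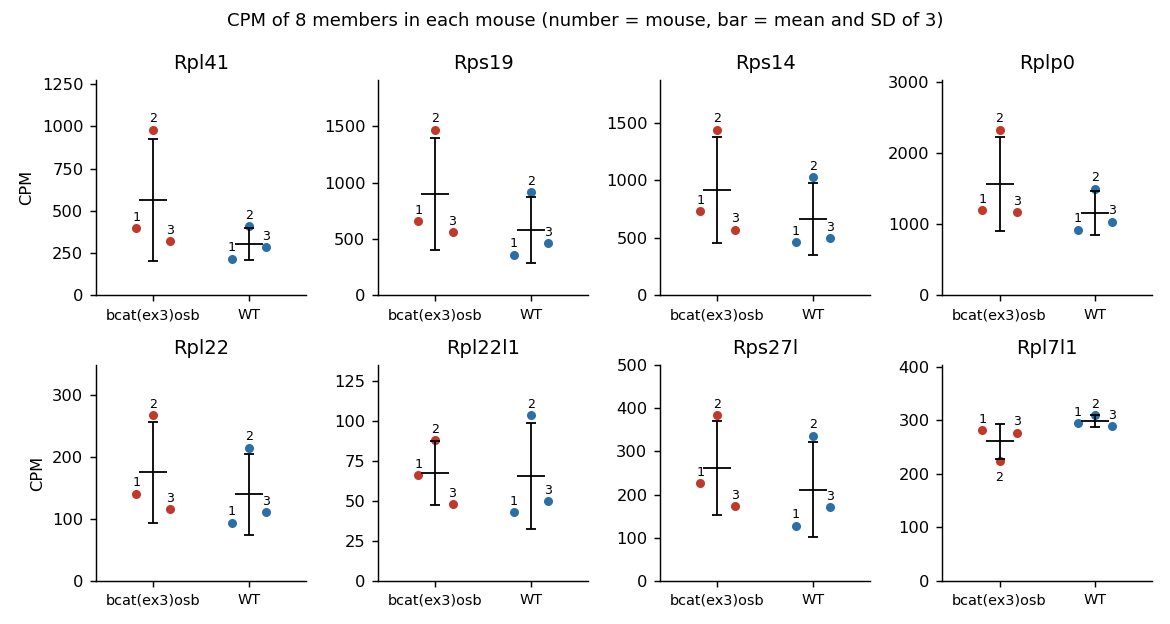
CPM of 8 members in each mouse, on linear axes from 0, with bcat(ex3)osb left of WT, the mouse number at each point, and bars at the mean and SD of 3 mice. Mouse 2 is highest within both groups for 7 of the genes shown, while for Rpl7l1 bcat(ex3)osb mouse 2 is lowest at 224 CPM.

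All 31 small-subunit genes also had positive log2 fold changes, between 0.26 and 0.81 with a median of 0.46, and 0 were called. Rps19 (chr7:24884592-24889811), the gene most often mutated in human Diamond-Blackfan anaemia, had 658, 1472 and 565 CPM in bcat(ex3)osb mice 1, 2 and 3, against 363, 915 and 463 CPM in WT mice 1, 2 and 3. WT mouse 2 was the second-highest of the 6. The log2 fold change was 0.63 ± 0.45 (SE, edgeR adjusted p 0.877). Rps14 (chr18:60774596-60778546), lost from one chromosome in the human 5q- syndrome, had 730.1, 1440.3 and 572 CPM in bcat(ex3)osb mice 1, 2 and 3, against 463, 1024 and 501 CPM in WT mice 1, 2 and 3, with a log2 fold change of 0.46 ± 0.42 (adjusted p 0.895), and its groups overlapped in the same way. Over 7 genes of human ribosomal anaemias (Rps14, Rps19, Rpl5, Rpl11, Rpl35a, Rps24 and Rps26), 7 had positive log2 fold changes of 0.25 to 0.67, with a median of 0.52, and 0 were called.

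Rps29 (chr12:69157722-69159186), a short zinc-binding protein, had 432, 1083 and 336 CPM in bcat(ex3)osb mice 1, 2 and 3, against 208, 599.9 and 290.1 CPM in WT mice 1, 2 and 3. Rps21 (chr2:180257379-180258444) had 107, 274 and 76.7 CPM in bcat(ex3)osb mice 1, 2 and 3, against 47.7, 148 and 64.9 CPM in WT mice 1, 2 and 3. The log2 fold changes were 0.75 ± 0.52 for Rps29 and 0.81 ± 0.56 for Rps21, at edgeR adjusted p values of 0.869 and 0.868. In both genes WT mouse 1 was lowest, and bcat(ex3)osb mouse 2 was the highest of the 6 mice. Rps6, the substrate of the S6 kinases, had 501, 931 and 472 CPM in bcat(ex3)osb mice 1, 2 and 3, against 383, 614 and 439 CPM in WT mice 1, 2 and 3. Rps27a, which encodes ubiquitin fused to a ribosomal protein, had 298, 600.2 and 254 CPM in bcat(ex3)osb mice 1, 2 and 3, against 199.5, 424 and 236 CPM in WT mice 1, 2 and 3, and Rpsa, the ribosomal protein also known as a laminin receptor, had 570.2, 1184 and 506 CPM in bcat(ex3)osb mice 1, 2 and 3, against 408, 794 and 474 CPM in WT mice 1, 2 and 3. All 3 of these genes repeated the order of the module, with bcat(ex3)osb mouse 2 first, WT mouse 2 second and WT mouse 1 last. Rps4x, the X-linked form of the Rps4 protein gene, had 423, 825 and 387 CPM in bcat(ex3)osb mice 1, 2 and 3, against 327, 631 and 381 CPM in WT mice 1, 2 and 3, and its relative Rps4y2 (RefSeq Rps4l, chr6:148354656-148355596) had 21.5, 46.9 and 14.6 CPM in bcat(ex3)osb mice 1, 2 and 3, against 11.1, 23.0 and 10.7 CPM in WT mice 1, 2 and 3. The log2 fold change of Rps4y2 was 0.89 ± 0.49 (adjusted p 0.813), with bcat(ex3)osb mouse 2 above the other 5.

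The 3 stalk genes, whose proteins form the arm of the large subunit that recruits the translation factors, had log2 fold changes of 0.44 ± 0.32 (Rplp0), 0.53 ± 0.47 (Rplp1) and 0.53 ± 0.49 (Rplp2), all SE, with edgeR adjusted p values of 0.877, 0.895 and 0.895. Rplp0 (chr5:115559467-115563729), the base of the stalk, had 1198, 2331 and 1171 CPM in bcat(ex3)osb mice 1, 2 and 3, against 924, 1502 and 1036 CPM in WT mice 1, 2 and 3. Rplp1 had 333, 756 and 274 CPM in bcat(ex3)osb mice 1, 2 and 3, against 200.3, 509.7 and 237 CPM in WT mice 1, 2 and 3, and Rplp2 had 315, 654 and 224 CPM in bcat(ex3)osb mice 1, 2 and 3, against 164, 454 and 207 CPM in WT mice 1, 2 and 3. Mouse 2 was highest in each group for all 3 genes, and WT mouse 1 was lowest. Per length, Rplp0 averaged 2099.8 ± 456 TPM in bcat(ex3)osb and 1755 ± 202 TPM in WT mice (SD, n = 3 each). Rplp1 averaged 1735 ± 648 TPM in bcat(ex3)osb and 1360.5 ± 520.0 TPM in WT mice, and Rplp2 averaged 1613 ± 600.3 TPM in bcat(ex3)osb and 1253 ± 522 TPM in WT mice. On the TPM scale Rplp0 was above both Rplp1 and Rplp2 in each of the 6 libraries.

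The 4 paralogs measured had a median log2 fold change of -0.01, and 2 of the 4 were negative, the only negative values among the 81 members with TMM scaling (with upper-quartile scaling Rpl22l1 was negative too, at -0.0082). Rpl22l1 (chr3:28805508-28807424) encodes a protein that can take the place of Rpl22 in the ribosome, and in mice Rpl22 restrains its expression. Rpl22l1 had 66.2, 88.2 and 48.1 CPM in bcat(ex3)osb mice 1, 2 and 3, against 42.8, 104 and 49.9 CPM in WT mice 1, 2 and 3, with WT mouse 2 highest, and a log2 fold change of 0.04 ± 0.37 (SE, edgeR adjusted p 0.988). Rpl22 (chr4:152324436-152334082), which mouse T cell precursors need, had 141, 269 and 117 CPM in bcat(ex3)osb mice 1, 2 and 3, against 94.0, 215 and 112 CPM in WT mice 1, 2 and 3 and a log2 fold change of 0.32 ± 0.41 (adjusted p 0.920). The log2 ratio of Rpl22l1 to Rpl22 counts, which no scaling of the library affects, was -1.09, -1.61 and -1.28 in bcat(ex3)osb mice 1, 2 and 3, against -1.14, -1.05 and -1.16 in WT mice 1, 2 and 3. Only bcat(ex3)osb mouse 1 fell within the WT range, and mice 2 and 3 lay below it. The mean ratio differed by -0.21 (bcat(ex3)osb minus WT), with p = 0.3 by a two-sided exact permutation test and 0.6 after Benjamini-Hochberg adjustment over the 4 pairs. Per length, the TPM ratio of Rpl22l1 to Rpl22 was 2.00, 1.40 and 1.76 in bcat(ex3)osb mice 1, 2 and 3, against 1.95, 2.06 and 1.91 in WT mice 1, 2 and 3, above 1 in all 6 mice.

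Rpl7l1 (chr17:46773907-46782656), related to a yeast factor of large-subunit assembly, had a standard deviation of 0.74 log2 units around the module level, the largest after Rpl3l at 0.93. It had 281, 224 and 277 CPM in bcat(ex3)osb mice 1, 2 and 3, against 296, 310.5 and 289.8 CPM in WT mice 1, 2 and 3, so that all bcat(ex3)osb values lay below all WT values. Mouse 2 was lowest among the bcat(ex3)osb mice and highest among the WT mice. Its log2 fold change was -0.20 ± 0.18 (SE, edgeR adjusted p 0.895). Its parent Rpl7 (chr1:16101295-16104433) had 458, 697 and 357 CPM in bcat(ex3)osb mice 1, 2 and 3, against 370.3, 624 and 401 CPM in WT mice 1, 2 and 3, with mouse 2 highest in both groups and a log2 fold change of 0.12 ± 0.31 (adjusted p 0.964). The log2 ratio of Rpl7l1 to Rpl7 counts was -0.70, -1.64 and -0.36 in bcat(ex3)osb mice 1, 2 and 3, against -0.32, -1.01 and -0.47 in WT mice 1, 2 and 3. It was lowest in mouse 2 of both groups and differed by -0.30 between the genotypes, with p = 0.6 by the exact permutation test (0.6 adjusted over the 4 pairs).

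Rps27l (chr9:66944624-66949522), a near copy of the Rps27 protein, had 226, 385 and 174 CPM in bcat(ex3)osb mice 1, 2 and 3, against 128, 337 and 171 CPM in WT mice 1, 2 and 3 and a log2 fold change of 0.31 ± 0.41 (SE, edgeR adjusted p 0.920). WT mouse 2 lay above bcat(ex3)osb mice 1 and 3. Its parent Rps27 had only 36, 49 and 37 counts in bcat(ex3)osb mice 1, 2 and 3, against 28, 38 and 30 in WT mice 1, 2 and 3, with a log2 fold change of 0.44 ± 0.54. The log2 ratio of Rps27l to Rps27 counts differed by -0.10 (p = 0.6, exact permutation test, 0.6 adjusted). Rpl3l (chr17:24727826-24736143), the form used in striated muscle, was at the limit of detection, with 13, 25 and 2 counts in bcat(ex3)osb mice 1, 2 and 3, against 8, 18 and 20 in WT mice 1, 2 and 3. Rpl3, its parent, had 851, 1576 and 866 CPM in bcat(ex3)osb mice 1, 2 and 3, against 663, 1107 and 781 CPM in WT mice 1, 2 and 3 and a log2 fold change of 0.37 ± 0.31. Rpl3l had a log2 fold change of -0.07 ± 0.94 (edgeR adjusted p 0.993), and its ratio to Rpl3 differed by -0.87 (p = 0.5, exact permutation test, 0.6 adjusted). Rpl39l, a testis-enriched form, stayed below the count minimum, and its parent Rpl39 had 101, 246 and 75.8 CPM in bcat(ex3)osb mice 1, 2 and 3, against 54.8, 150.1 and 75.1 CPM in WT mice 1, 2 and 3.

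To compare members with each other, the libraries were also set level on the median member. After this step 0 members and 0% of genes were called by edgeR's quasi-likelihood test at an adjusted p of 0.05, and 0 members at an unadjusted p of 0.05, against 0.585% of all genes higher and 1.52% lower. The smallest adjusted p of a member was 0.855. The SE of this fit draw on all genes and were wide beside the spread among members. For example, Rps27l had a standard deviation of 0.118 log2 units around the module and an SE of 0.32. Small departures from the module could hardly be called here, so the 0 calls do not show that no member departs. The members with the smallest p on the higher side were Rpl41 at 0.34 ± 0.30, Rpl38 at 0.34 ± 0.35, Rps4y2 at 0.39 ± 0.41, Rps29 at 0.28 ± 0.30 and Rps21 at 0.34 ± 0.38, as log2 fold change relative to the module and SE. Those on the lower side were Rpl7l1 at -0.55 ± 0.48, Rpl7 at -0.33 ± 0.29, Rpl4 at -0.21 ± 0.25, Rpl3l at -0.70 ± 0.85 and Rpl22l1 at -0.30 ± 0.38. Relative to the module, Rpl7l1 stood at 0.06, -1.31 and 0.29 log2 units in bcat(ex3)osb mice 1, 2 and 3, against 0.81, -0.31 and 0.47 in WT mice 1, 2 and 3. Rpl22l1 stood at 0.12, -0.50 and -0.09 in bcat(ex3)osb mice 1, 2 and 3, against 0.16, 0.25 and 0.07 in WT mice 1, 2 and 3. Both paralogs were thus lowest, relative to the other members, in bcat(ex3)osb mouse 2, the library where the members were highest.

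**Figure D3:**
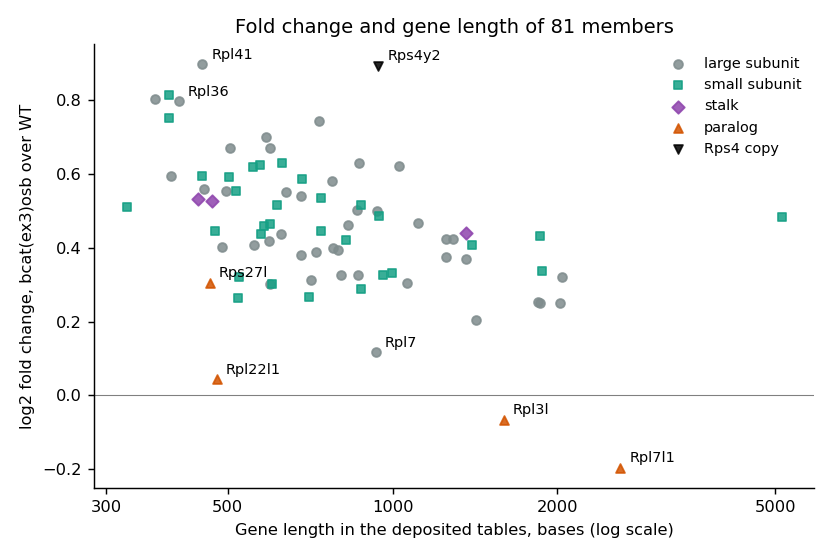
Log2 fold change, bcat(ex3)osb over WT, of each of 81 members against gene length in bases on a log axis, with a symbol for each class. Short members such as Rpl41 (0.90) lie high and the long paralog Rpl7l1 (-0.20) lies lowest, and Spearman's rho over the 81 genes is -0.48.

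The size of the fold change went with gene length. Across the 81 members, which share the 6 libraries and are not independent, Spearman's rho between log2 fold change and gene length was -0.48, and between log2 fold change and mean TPM it was 0.19. With a trend on gene length removed from each library, the member median was 0.23 in place of 0.44. Then 77 of 81 members were positive, 14 had an unadjusted edgeR p under 0.05 on the higher side against 5.17% of all genes, and 0 passed the adjusted threshold. Rpl7 and Rpl22l1 turned negative under this trend, at -0.07 and -0.15.

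Levels per gene length spanned a wide range. Over the 6 mice, the median member averaged 888.7 TPM, the quartiles were 548 and 1418 TPM, 37 members exceeded 1000 TPM and 5 were under 50 TPM. Rpl32, the highest, averaged 4270.0 ± 1408 TPM in bcat(ex3)osb and 3036 ± 870.4 TPM in WT mice, and Rpl13 averaged 3679.9 ± 933 TPM in bcat(ex3)osb and 3140.5 ± 795 TPM in WT mice (SD, n = 3 each). Rps14 and Rps29 also ranked near the top, with 2762 ± 839 TPM in bcat(ex3)osb and 2254 ± 720.0 TPM in WT mice for Rps14 and 2797 ± 1278 TPM in bcat(ex3)osb and 1886 ± 784 TPM in WT mice for Rps29. On this scale Rpl32 was above Rpl13 in the 3 bcat(ex3)osb mice and below it in the 3 WT mice, and Rps14 was above Rps29 in every mouse but bcat(ex3)osb mouse 2. The 5 lowest were Rps4y2, Rpl34, Rpl30, Rps27 and Rpl3l. Rps4y2 averaged 52.3 ± 21.9 TPM in bcat(ex3)osb and 32.2 ± 10.2 TPM in WT mice, Rpl34 29.9 ± 3.66 TPM in bcat(ex3)osb and 26.4 ± 9.82 TPM in WT mice and Rpl30 11.5 ± 4.98 TPM in bcat(ex3)osb and 9.60 ± 4.25 TPM in WT mice. Rps27 averaged 7.69 ± 0.747 TPM in bcat(ex3)osb and 6.29 ± 1.24 TPM in WT mice, and Rpl3l 0.867 ± 0.700 TPM in bcat(ex3)osb and 1.08 ± 0.433 TPM in WT mice.

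**Figure D4:**
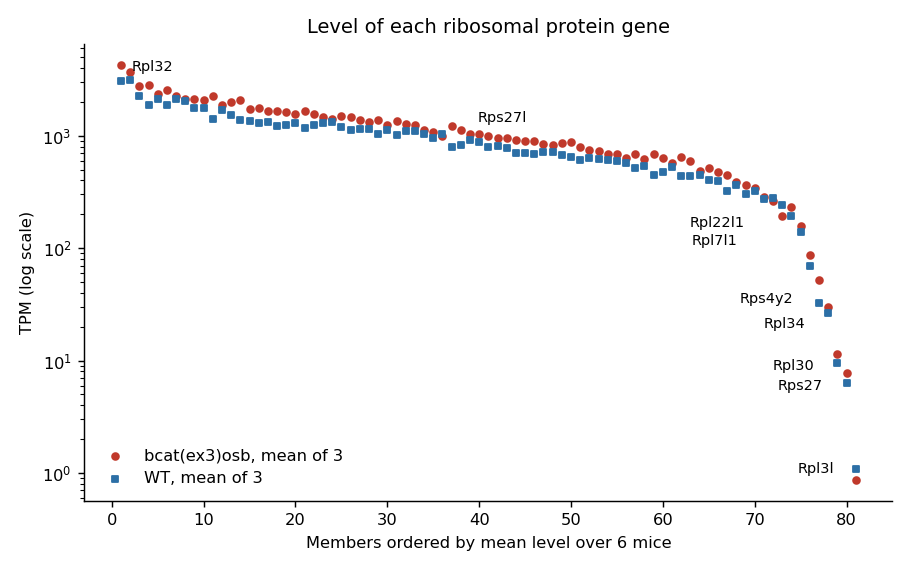
Mean TPM of each of 81 members on a log axis, ordered by the mean over 6 mice, with bcat(ex3)osb as red circles and WT as blue squares. Most members lie between 548 and 1418 TPM or near it, and Rpl34, Rpl30, Rps27 and Rpl3l form a tail reaching 0.972 TPM over the 6 mice.

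Among the lowest were Rpl34, Rpl30 and Rps27, along with Rpl26 at 1 count in all, genes of ribosomal proteins, of which Rps27 has the near copy Rps27l. Their measured levels lay far under those of the other subunits, also in WT mice. In the GENCODE M21 annotation, blastn at 95% or more identity over 80% or more of the coding sequence found near-identical transcripts of 5 other genes for Rpl34, 12 for Rpl30, 4 for Rps27 and 6 for Rpl26. Of the 81 members, 75 had at least 1 such gene, with a median of 5 and a maximum of 57, for Rpl21. Across the 81 members the number of copies and the mean TPM had a Spearman's rho of -0.177. How the authors counted reads that map to several genes is not given in the sources used here, so the levels of members with copies are uncertain, and the part of shared reads in the low values was not tested. Rps27l and Rpl3l had 0 such copies.

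Other TOP transcripts, from a list of translation factors and related genes, had mostly positive fold changes as well. Of 27 tested, 25 had positive log2 fold changes, with a median of 0.26, and 0 were called, with 0 at an unadjusted p of 0.05. Their median distance from the WT mean was 0.05, 0.72 and -0.04 log2 units in bcat(ex3)osb mice 1, 2 and 3, against -0.37, 0.44 and -0.08 in WT mice 1, 2 and 3, so mouse 2 was again highest in both groups. Eif3f, a subunit of the initiation factor eIF3, had 187, 366 and 177 CPM in bcat(ex3)osb mice 1, 2 and 3, against 111, 210.0 and 159 CPM in WT mice 1, 2 and 3. Snhg8, a TOP-type host gene of small nucleolar RNA, had 10.6, 36.1 and 11.9 CPM in bcat(ex3)osb mice 1, 2 and 3, against 7.57, 17.0 and 10.2 CPM in WT mice 1, 2 and 3. For both genes bcat(ex3)osb mouse 2 was highest and the groups overlapped. The log2 fold changes were 0.60 ± 0.35 for Eif3f and 0.75 ± 0.53 for Snhg8 (SE), with edgeR adjusted p values of 0.832 and 0.876.

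Of 21 tested regulators of TOP translation and S6 kinases, 14 had positive and 7 negative log2 fold changes, with a median of 0.06, and 0 were called. At an unadjusted p of 0.05 there was 1 on the higher side, where the share of all genes was 3.43%, and 0 on the lower side. That gene was Larp1, which binds the TOP tract and holds these mRNAs in a stable, untranslated pool. Larp1 had 361, 311 and 344 CPM in bcat(ex3)osb mice 1, 2 and 3, against 245, 205 and 279.5 CPM in WT mice 1, 2 and 3, every bcat(ex3)osb value above every WT value, with a log2 fold change of 0.48 ± 0.19 (SE) and an edgeR adjusted p of 0.715. Rps6kb2, which encodes an S6 kinase, had 27.3, 33.7 and 32.1 CPM in bcat(ex3)osb mice 1, 2 and 3, against 38.5, 39.4 and 44.2 CPM in WT mice 1, 2 and 3, every bcat(ex3)osb value below every WT value, with an adjusted p of 0.798. Such a lack of overlap was seen for 1 of the 21 regulators on each side, against 6.89% of all genes higher and 7.67% lower. Tsc2, an inhibitor of mTOR signalling, had 73.8, 32.5 and 55.4 CPM in bcat(ex3)osb mice 1, 2 and 3, against 128, 45.8 and 89.1 CPM in WT mice 1, 2 and 3, with overlapping groups and an adjusted p of 0.846.

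The direction of the member median depended on which mice entered. Without bcat(ex3)osb mouse 2 it was -0.04, with 25 members positive and 56 negative, and without WT mouse 2 it was 0.89, with 19 members at an unadjusted edgeR p under 0.05 on the higher side (3.92% of all genes). Without both mouse 2 libraries it was 0.38, 79 members were positive and 35 had an unadjusted p under 0.05 on the higher side (5.33% of all genes). In that set of 4 libraries, both bcat(ex3)osb values lay above both WT values for 67 members and below them for 1, Rpl7l1, against 23% and 22.2% of all genes. Since the members share their library levels, none of these counts of members is a count of independent observations. With sex as a covariate the median was -0.17, with 9 members positive and 72 negative, and in the 4 female mice it was -0.19, with 6 positive. In those 2 settings the genotype difference rests on bcat(ex3)osb mouse 3 as the only female of its group, and sex and the individual mice 1 and 2 cannot be told apart. By the adjusted p, 0 members were called in each of these settings.

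**Figure D5:**
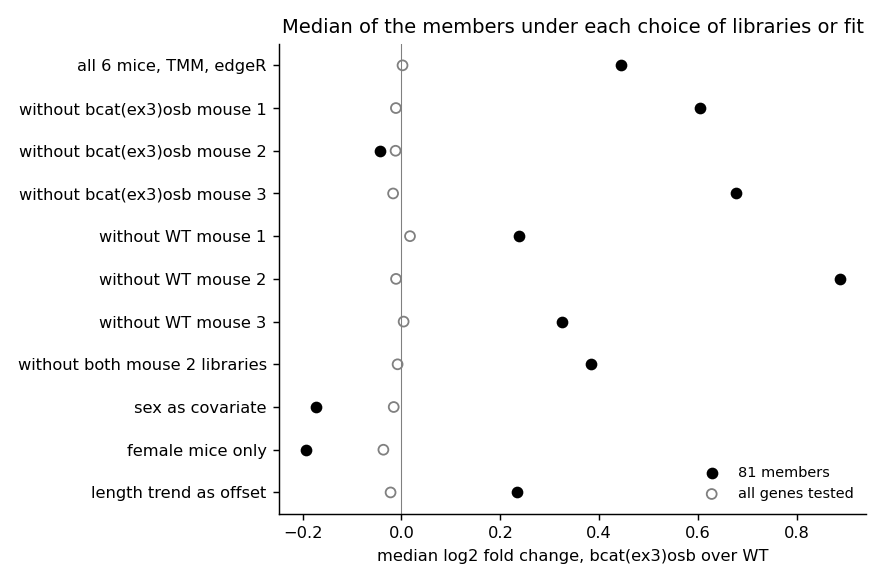
Median log2 fold change, bcat(ex3)osb over WT, of the members (filled) and of all genes tested (open), for the 6 mice and for each choice of libraries or fit. The member median is 0.44 with all 6 mice, 0.89 without WT mouse 2, -0.04 without bcat(ex3)osb mouse 2 and -0.17 with sex as covariate, while the median of all genes stays near 0.00.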

How the data were processed

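RNA-seq of LSK cells from 3 bcat(ex3)osb and 3 WT mice was used. The submitters' processing notes name STAR 2.5.2b, featureCounts 1.5.0-p3, bcl2fastq 2.17 and the build mm10. Strand, multi-mapping reads and annotation settings were not given in these sources. The authors deposited unnormalized whole-number counts per gene, and tables with gene length and FPKM. Each deposited FPKM value matched the count scaled by length and library total within 0.005.

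From the counts, genes passing filterByExpr (minimum count 10, minimum total 15) were compared in edgeR 4.0.16 (R 4.3.3) using TMM scaling, genotype as the only term and a two-sided quasi-likelihood test, adjusted by Benjamini-Hochberg over all 12653 genes. SE were derived from the F statistic. TPM was computed from counts and deposited gene length. A second fit used an offset that set the median log2 CPM of the members (prior count 0.5) level. The log2 distances from the WT mean used a prior count of 1. Shares and paralog ratios (prior count 0.5) had exact permutation tests, whose smallest p with 3 against 3 is 0.10. The procedure was tested on simulated data. Alternatives were RLE and upper-quartile scaling, a length trend, DESeq2 1.42.0, limma 3.58.1 (voom, and log2 FPKM plus 1 or 0.1), other filters, the mouse number as a block, sex, and omitted mice.

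Named were the 5 members with the smallest p per direction in each fit, the 5 highest and 5 lowest by TPM, the paralogs with their parents, the stalk, genes of ribosomal anaemias, Rps27a, Rpsa, Rps6, Rpl41 and Rps4x, and the 3 smallest p of each other list. A few genes under the rule are not reported here. Rpl26 and Rpl21 were named after their values were seen. The members and lists were chosen with earlier results of these data known. Sequences and coordinates are 1-based RefSeq entries on GRCm38.p6, in which 81 members matched. Copies were searched with blastn 2.17.0. Counts without molecular identifiers are not independent molecules, so precision also depends on PCR.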

Additional observations from a re-analysis of the deposited data

How the results depend on the processing

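Over 14 settings of the fit across all genes and the omission of each mouse, 0 of the members tested passed the adjusted threshold, and levelling the libraries by the mean member or with the mouse block also gave 0. The count of all genes called was 0 under the other settings, 169 with DESeq2, 5 with the replicate block, and 0 to 14 with 1 mouse left out, the 14 without bcat(ex3)osb mouse 1. The member median log2 fold change was 0.23 to 0.46 under the other scalings, tests, filters and FPKM scales, -0.17 in the fit with a term for sex and -0.19 among female mice, and -0.04 to 0.89 with 1 mouse left out. The difference in the share of counts was 0.546 points without both mouse 2 libraries and -0.0933 to 1.43 points with 1 mouse left out, and in the share of TPM it was 1.78 points. The ratio of Rpl7l1 to Rpl7 differed by -0.57 to 0.07 and that of Rps27l to Rps27 by -0.24 to 0.06.

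With sex as a covariate, log2 fold changes turned negative for Rps4y2 (-0.024), Rpl36 (-0.025), Rpl38 (-0.035), Rps29 (-0.12), Rps21 (-0.18), Rpl7 (-0.38), Rpl4 (-0.089), Rpl22l1 (-0.45), Rpl22 (-0.27), Rps27l (-0.28), Rplp1 (-0.20), Rplp2 (-0.30), Rps14 (-0.21) and Rps19 (-0.039). In the female mice they were -0.043 (Rps4y2), -0.0081 (Rpl27), -0.012 (Rpl32), -0.045 (Rpl36), -0.056 (Rpl38), -0.14 (Rps29), -0.20 (Rps21), -0.40 (Rpl7), -0.11 (Rpl4), -0.47 (Rpl22l1), -0.29 (Rpl22), -0.30 (Rps27l), -0.22 (Rplp1), -0.32 (Rplp2), -0.23 (Rps14) and -0.059 (Rps19). With the length trend Rpl7 was at -0.071 and Rpl22l1 at -0.15, and with upper-quartile scaling Rpl22l1 was at -0.0082. With 1 mouse left out the ranges that crossed 0 were -0.12 to 0.77 for Rpl22, -0.20 to 0.54 for Rpl22l1, -1.03 to 0.45 for Rpl3l, -0.053 to 0.46 for Rpl4, -0.19 to 0.39 for Rpl7, -0.055 to 1.06 for Rplp1, -0.027 to 1.10 for Rplp2, -0.024 to 0.92 for Rps14 and -0.081 to 0.81 for Rps27l. The cause of these reversals was not tested.

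The mouse numbers were not taken as pairs, since same-numbered libraries correlated at 0.11, 0.35 and 0.05 in their deviations from the group means, and bcat(ex3)osb mouse 1 correlated best with WT mouse 3 (0.13) and bcat(ex3)osb mouse 3 with WT mouse 1 (0.28). With the replicate block the member median was 0.42, 56 members (and 881 of all 12653 genes) had an unadjusted p under 0.05 on the higher side, more members than under any other setting of the fit across all genes, and 0 passed the adjusted threshold. These 56 members share their library levels and are not independent observations. The median member difference between same-numbered mice, bcat(ex3)osb minus WT, was 0.63, 0.52 and 0.11 log2 units for mice 1, 2 and 3. The SE of a member's log2 fold change had a median of 0.43, and for 32 of the 81 members, abundant ones among them, it exceeded the member median of 0.44. With 3 mice a group and both mouse 2 libraries apart from the rest, the member difference was within the spread between mice.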
